A study of Mus musculus with 12 samples.

Results

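The genes described here encode 3 kinds of conjugating enzyme: the glutathione S-transferases, the UDP-glucuronosyltransferases and the cytosolic sulfotransferases. They were taken by name from the deposited expression table of mouse kidney, as the protein-coding genes whose symbols begin with Gst and a class letter (a, m, p, t, k or o), Mgst, Ugt1, Ugt2 or Sult, each followed by its member name. That rule used no measured value and found 59 genes among the 43346 listed, 22032 of them protein-coding. They fell into 20 glutathione S-transferases of the cytosolic and kappa classes, 3 microsomal glutathione S-transferases, 9 members of the UGT1 locus, 9 UGT2 genes and 18 sulfotransferases.

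Conjugating enzymes attach a polar group to drugs, toxins, steroids and products of lipid peroxidation, so that the product is more soluble and can be exported. Glutathione S-transferases use glutathione, UDP-glucuronosyltransferases use glucuronic acid carried on UDP, and sulfotransferases use sulfate carried on PAPS (3′-phosphoadenosine 5′-phosphosulfate). In the kidney, proximal tubule cells take up organic solutes from blood and filtrate, conjugate many of them, and also break down glutathione conjugates on the way to mercapturates.

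Kidney RNA was sequenced 1 day after a sham procedure (6 libraries, Sham 1 to 6) or after HP-AKI (6 libraries, HP-AKI 7, 8, 9, 11, 12 and 13). What the letters stand for is not written in the labels; the field uses HP-AKI for acute kidney injury by heme proteins, of which myoglobin released from muscle is an example. Strain, sex, age, genotype, the inducing agent and its dose are not given in the sources used here, and the sham group is described only as sham. Nothing in the sources used here says whether each of the 12 samples came from an animal of its own; the p-values rest on library-to-library spread, which may be technical. Total counts per library ran from 35201197 to 41951129 in sham and from 31624522 to 40630917 in HP-AKI. The first principal component of log2 CPM, the scaled counts described next, held 81.3% of the variance and separated the groups. The second held 7.85%, with Sham 1, Sham 2 and HP-AKI 8 together at one end, and a fit without these 3 libraries is given beside the members that follow them. The 3 were picked from these same data, so a smaller p-value in that fit is not added support. In that fit every member tested in both kept its direction and its side of the threshold.

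Levels are given as CPM (a gene's counts relative to the total counts of its library), scaled with TMM (trimmed mean of M-values) factors, and a mean is followed by its SD (n = 6 libraries). Fold changes are HP-AKI over sham on the log2 scale with their standard error, from the quasi-likelihood test of edgeR, with p-values adjusted by Benjamini-Hochberg over all 17470 genes tested and a threshold of 0.05. Levels of different genes are compared only as CPM per kilobase of listed gene length. Of the 59 genes, 53 had counts and 44 passed the filter on low counts. The other 9 with counts were not tested, and Sult1c1, Sult2a1, Sult2a2, Sult2a5, Sult2a6 and Sult2a7 had no counts in any library.

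Stretches of the transcripts are shown before the values because several members share sequence, which bears on how their reads could be counted. They were read from the GENCODE vM21 transcripts of the GRCm38 build and are written 5′ to 3′ on the strand of the gene. The 9 UGT1 genes each have a first exon of their own and share the same downstream exons on chromosome 1, 1311 exon bases in all 9.

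Gsta1 and Gsta2 are 98.05% identical over 666 aligned coding bases, with 13 mismatches. The 60-base windows of coding bases 451 to 510, at chr9:78241563-78241622 on the plus strand and chr9:78332123-78332182 on the minus strand, hold the most differences between them within 1 coding exon. Capitals mark the 5 positions that differ.
Gsta1: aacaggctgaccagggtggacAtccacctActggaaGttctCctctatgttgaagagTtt
Gsta2: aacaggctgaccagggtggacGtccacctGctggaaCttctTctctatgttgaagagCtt

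Ugt2b37 is 94.1% identical to Ugt2b38 and 94.7% identical to Ugt2b5 over 1590 coding bases, and Ugt2b38 and Ugt2b5 are 97.04% identical to each other. The windows of coding bases 250 to 309 lie on the minus strand of chromosome 5, at chr5:87254462-87254521, chr5:87423863-87423922 and chr5:87139998-87140057, and hold the most differences between the first 2. Capitals mark the 11 positions at which Ugt2b37 differs from Ugt2b38; in this window Ugt2b5 reads as Ugt2b38 does.
Ugt2b37: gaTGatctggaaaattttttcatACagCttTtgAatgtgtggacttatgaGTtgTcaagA
Ugt2b38: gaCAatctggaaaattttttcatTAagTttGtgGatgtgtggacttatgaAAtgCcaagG
Ugt2b5: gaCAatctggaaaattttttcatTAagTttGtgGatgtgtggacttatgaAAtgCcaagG

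How the authors' counting treated reads that match more than 1 of these genes is not given in the sources used here. As a measure of what such reads could touch, 90.5% of the 50-base words of Gsta1 also occur in transcripts of other genes, 75.7% in Gm3776 alone. No gene of that name is listed in the deposited counts. It was not looked for under another name or gene identifier, so its level is not given. The share of words found in other genes was 49.8% for Gsta2, 41.7% for Ugt2b5, 37.4% for Ugt2b38, 18.3% for Ugt2b37, 33.7% for Gstp1 and 54.3% for Gstp2. It was 0 for Sult1e1, Sult1d1, Mgst1 and Gsto1, so reads of that length from these 4 genes match no other annotated transcript.

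Of the 44 genes tested, 13 rose and 27 fell in HP-AKI and 4 did not pass the test, so that 90.9% were called. Over all genes tested 72.8% were called, 37.7% higher and 35.2% lower, so the share of members called stood above a background that was itself high. The 9 UGT1 rows hold largely the same reads; with them counted once, 32 of 36 members were called (88.9%), 13 higher and 19 lower. At 2-fold or more, 8 of the 44 were higher and 8 lower, against 16.1% and 17.1% of all genes. The 6 sham and 6 HP-AKI values did not overlap for 22 of the 36, where 52.4% of all genes tested had groups without overlap. The median log2 fold change was -0.65 over the 44 members and -0.40 with UGT1 counted once, and 0.042 over all genes.

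Markers of several cell types moved with the groups, not those of proximal tubule alone. All 12 proximal tubule markers fell, with a summed level of 56148 to 83498 CPM in sham and 24741 to 32459 CPM in HP-AKI, and in bulk kidney fewer cells of a type cannot be told apart from less RNA per cell. Of the thick limb and distal tubule markers 1 rose and 4 fell of 6 tested, with sums of 7357 to 8029 CPM in sham and 4436 to 6699.6 CPM in HP-AKI. The one that rose, Umod (uromodulin), had overlapping groups and a change of 0.11, not past the threshold, without Sham 1, Sham 2 and HP-AKI 8. Of the collecting duct markers 0 rose and 4 fell of 6 tested, with sums of 328 to 369 CPM in sham and 213 to 251 CPM in HP-AKI. The sums of these 3 tubule lists did not overlap between groups.

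Neutrophil markers rose in 4 of 4 tested genes, with sums of 1.83 to 3.49 CPM in sham and 17.6 to 143 CPM in HP-AKI. For podocytes 3 rose and 1 fell of 4 tested, with sums of 391 to 526 CPM in sham and 493 to 667 CPM in HP-AKI, for endothelium 3 rose and 1 fell of 5 tested, with sums of 442 to 514 CPM in sham and 428 to 671 CPM in HP-AKI, and for macrophages 2 rose and 3 fell of 6 tested, with sums of 89.4 to 129.5 CPM in sham and 102 to 152 CPM in HP-AKI, and these 3 sums overlapped between groups. The summed markers of other organs, liver and fat, also differed, both without overlap. For liver 1 rose and 2 fell of 6 tested, and for fat 2 rose and 0 fell of 4 tested. In both lists the share of genes called lay below the 72.8% called over all genes tested. The liver sums ran from 536 to 681 CPM in sham and from 261 to 367 CPM in HP-AKI. The fat sums ran from 74.4 to 121 CPM in sham and from 155 to 381 CPM in HP-AKI. In the fit without the 3 libraries named above, Fabp4 and Cidec of the fat list rose by 1.26 and 1.44 on the log2 scale. Adipoq and Plin1 changed by -1.30 and -0.29 in that fit and did not pass. For the adrenal cortex Star alone was tested, and rose; Cyp11b1 had 1 count in sham and none in HP-AKI, and the liver gene Cyp3a11 had 133 counts over the sham and 9 over the HP-AKI libraries. The part of any of these lists in the falls and rises of conjugating enzymes was not tested.

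**Figure D1:**
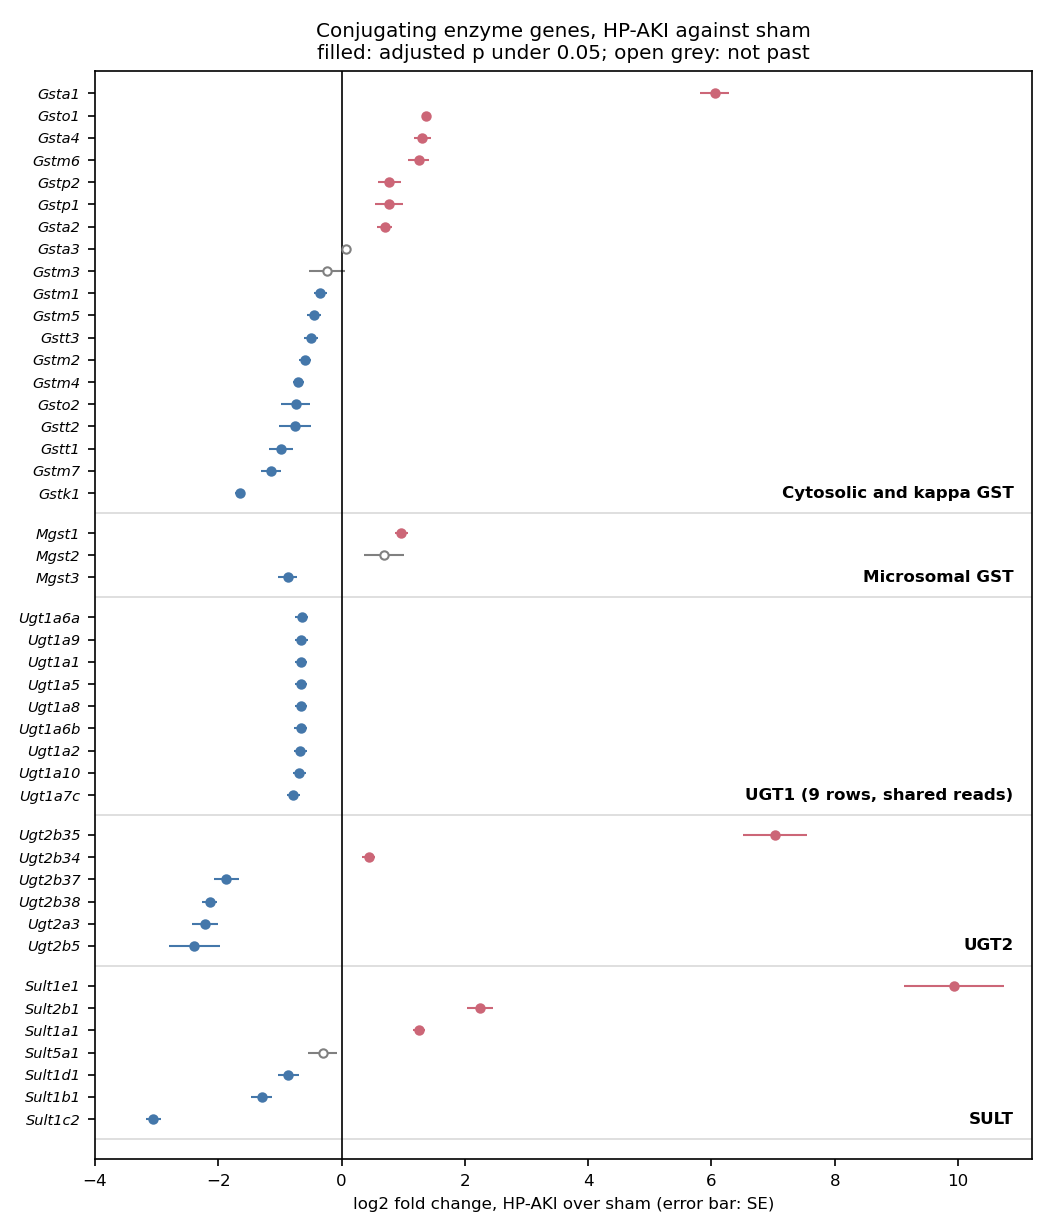
Log2 fold change, HP-AKI over sham, on the horizontal axis for each tested member, grouped by enzyme class; bars are standard errors, filled points passed the test and open grey points did not. The glutathione S-transferases spread to both sides of 0, the 9 UGT1 rows sit together below 0, and the sulfotransferases range from Sult1c2 at -3.05 to Sult1e1 at 9.93.

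Among the alpha-class glutathione S-transferases, enzymes that conjugate electrophiles and reduce organic hydroperoxides, 3 of 4 rose. Gsta1 (ENSMUSG00000074183, chr9:78230656-78242684) was low in sham, with 204 counts over the 6 libraries, and ranged from 0.610 to 1.28 CPM in sham (median 0.871) and from 42.01 to 98.2 CPM in HP-AKI (median 57.7). All 6 HP-AKI libraries lay far above all 6 sham libraries, a 66.5-fold difference of means, and the gene rose by 6.05 ± 0.24 on the log2 scale (adjusted p = 1.34e-11). Because 90.5% of its 50-base words also occur in other genes, reads of that length from most of Gsta1 cannot be told from reads of those genes. Gm10639, an annotated gene of the same region, went from 6.43 ± 1.36 to 10.5 ± 1.22 CPM.

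Gsta2, its close relative, was already abundant in sham and ranged from 218 to 338 CPM in sham (median 293) and from 361 to 534 CPM in HP-AKI (median 479). The groups did not overlap and the gene rose by 0.70 ± 0.12 on the log2 scale (adjusted p = 8.25e-05). With 400.2 CPM per kilobase it had the highest level per length of all members in HP-AKI, and in sham it had rank 4, at 246. Gsta4, which conjugates hydroxynonenal, a reactive aldehyde from lipid peroxidation, ranged from 33.2 to 42.7 CPM in sham (median 35.9) and from 55.6 to 118 CPM in HP-AKI (median 92.6). Its groups did not overlap either, and it rose by 1.31 ± 0.14 on the log2 scale (adjusted p = 5.88e-07). Gsta3, the remaining alpha member, stood at 185 ± 20.8 CPM in sham and 195 ± 13.7 CPM in HP-AKI, a difference of 0.073 ± 0.082 (adjusted p = 0.434), and passed only when libraries were scaled by total count alone (0.20, adjusted p = 0.0256). Gsta4, Gsta1 and Gsta2, the 3 alpha genes that rose, lie in that order within 164 kb of chromosome 9 (chr9:78191966-78355788), and Gsta3 lies on chromosome 1.

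The 7 mu-class genes, whose products conjugate aromatic and epoxide electrophiles, lie within 149 kb of chromosome 3 (chr3:107895821-108044894); 5 fell, Gstm6 rose and Gstm3 did not pass. Gstm1, the most abundant glutathione S-transferase per length in sham, ranged from 299.7 to 414 CPM in sham (median 384) and from 245 to 373 CPM in HP-AKI (median 279). These ranges overlapped; the gene fell by 0.35 ± 0.11 on the log2 scale (adjusted p = 0.00816), and with scaling by total count alone the change was -0.23 and did not pass (adjusted p = 0.0842). Gstm7 showed the largest fall of the class, with a range of 6.15 to 10.5 CPM in sham (median 9.09) and from 3.07 to 5.57 CPM in HP-AKI (median 3.89). Its groups were apart, and it fell by 1.15 ± 0.16 on the log2 scale (adjusted p = 1.17e-05).

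Gstm6 moved the other way within the same cluster, at low level, and ranged from 1.23 to 2.34 CPM in sham (median 1.96) and from 3.44 to 5.57 CPM in HP-AKI (median 4.35). Every HP-AKI library was above every sham library, and the gene rose by 1.25 ± 0.17 on the log2 scale (adjusted p = 9.38e-06). Gstm2, Gstm4 and Gstm5 changed by -0.59 ± 0.096, -0.71 ± 0.089 and -0.45 ± 0.12 (adjusted p = 5.33e-05, 3.66e-06 and 0.00335), and only the groups of Gstm5 overlapped. Gstm5 was highest in Sham 1 and Sham 2 (257 and 242 CPM), and without these and HP-AKI 8 its change was -0.29 (adjusted p = 0.0151). Gstm1 and Gstm7 were lowest in sham in the same 2 libraries, and their changes in that fit were -0.44 and -1.27. Gstm3, near 1 CPM in both groups, differed by -0.24 ± 0.30 (adjusted p = 0.484), and this sign turned without Sham 6 (0.061).

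Gsto1, an omega-class enzyme with thioltransferase and dehydroascorbate reductase activity, ranged from 35.7 to 44.05 CPM in sham (median 41.4) and from 93.1 to 113 CPM in HP-AKI (median 105). The spread within each group was narrow, the groups were well apart, and the gene rose by 1.38 ± 0.075 on the log2 scale (adjusted p = 3.56e-10). Its neighbour Gsto2 had 1.44 ± 0.268 CPM in sham and 0.856 ± 0.301 CPM in HP-AKI and fell by 0.75 ± 0.23 on the log2 scale (adjusted p = 0.00924), with overlapping groups. The omega pair, which lies within 31.4 kb of chromosome 19, therefore held 1 gene in each direction.

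Gstk1, the kappa-class enzyme of mitochondria and peroxisomes, ranged from 68.9 to 81.6 CPM in sham (median 72.4) and from 21.6 to 27.6 CPM in HP-AKI (median 22.2). No library of one group came near the other group, the difference of means was 3.12-fold, and the gene fell by 1.64 ± 0.082 on the log2 scale (adjusted p = 1.35e-10). It was the largest fall among the glutathione S-transferases tested.

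All 3 theta genes tested fell, and both pi genes rose, but these 5 genes also varied with the 3 libraries that stood together on the second component. Gstt1 ranged from 46.1 to 89.5 CPM in sham (median 79.00) and from 23.6 to 48.7 CPM in HP-AKI (median 37.5), and it fell by 0.99 ± 0.19 on the log2 scale (adjusted p = 2.88e-04). Gstt2 ranged from 57.8 to 156 CPM in sham (median 147) and from 39.7 to 106 CPM in HP-AKI (median 65.3), and it fell by 0.76 ± 0.26 on the log2 scale (adjusted p = 0.0161). The lowest sham values of both came from Sham 1 and Sham 2, and the lowest HP-AKI values from HP-AKI 8. Without those 3 libraries the changes were -1.14 for Gstt1 and -0.96 for Gstt2 (adjusted p = 3.30e-06 and 4.92e-05). The remaining sham values of Gstt1 then ran from 75.5 to 89.5 CPM and its HP-AKI values from 26.9 to 48.7 CPM. The overlap had come from Sham 2 alone (46.1 CPM), so leaving it out made the gap between them, which is no added support. Gstt3 fell by 0.50 ± 0.11 on the log2 scale (adjusted p = 9.95e-04), with a change of -0.56 without the 3 libraries; its exons share 524 bases with Gm20441 on the same strand. Gstt4 had 28 counts over all sham and 31 over all HP-AKI libraries and was not tested.

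Gstp1, the pi-class enzyme, ranged from 48.1 to 116 CPM in sham (median 104) and from 90.5 to 215 CPM in HP-AKI (median 152). The groups overlapped, with Sham 1, Sham 2 and HP-AKI 8 at the low end of each, and the gene rose by 0.77 ± 0.23 on the log2 scale (adjusted p = 0.00784). Without the 3 libraries the rise was 0.57 (adjusted p = 8.26e-04). Gstp2, 98.1% identical to Gstp1 over 630 coding bases and within 6.83 kb on chromosome 19 with it, stood at 1.92 ± 0.434 CPM in sham and 3.30 ± 0.780 CPM in HP-AKI and rose by 0.78 ± 0.19 on the log2 scale (adjusted p = 0.00203), or by 0.69 without the 3 libraries. How reads were divided between the pair is not given, so the similar size of their changes is not 2 independent measurements.

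**Figure D2:**
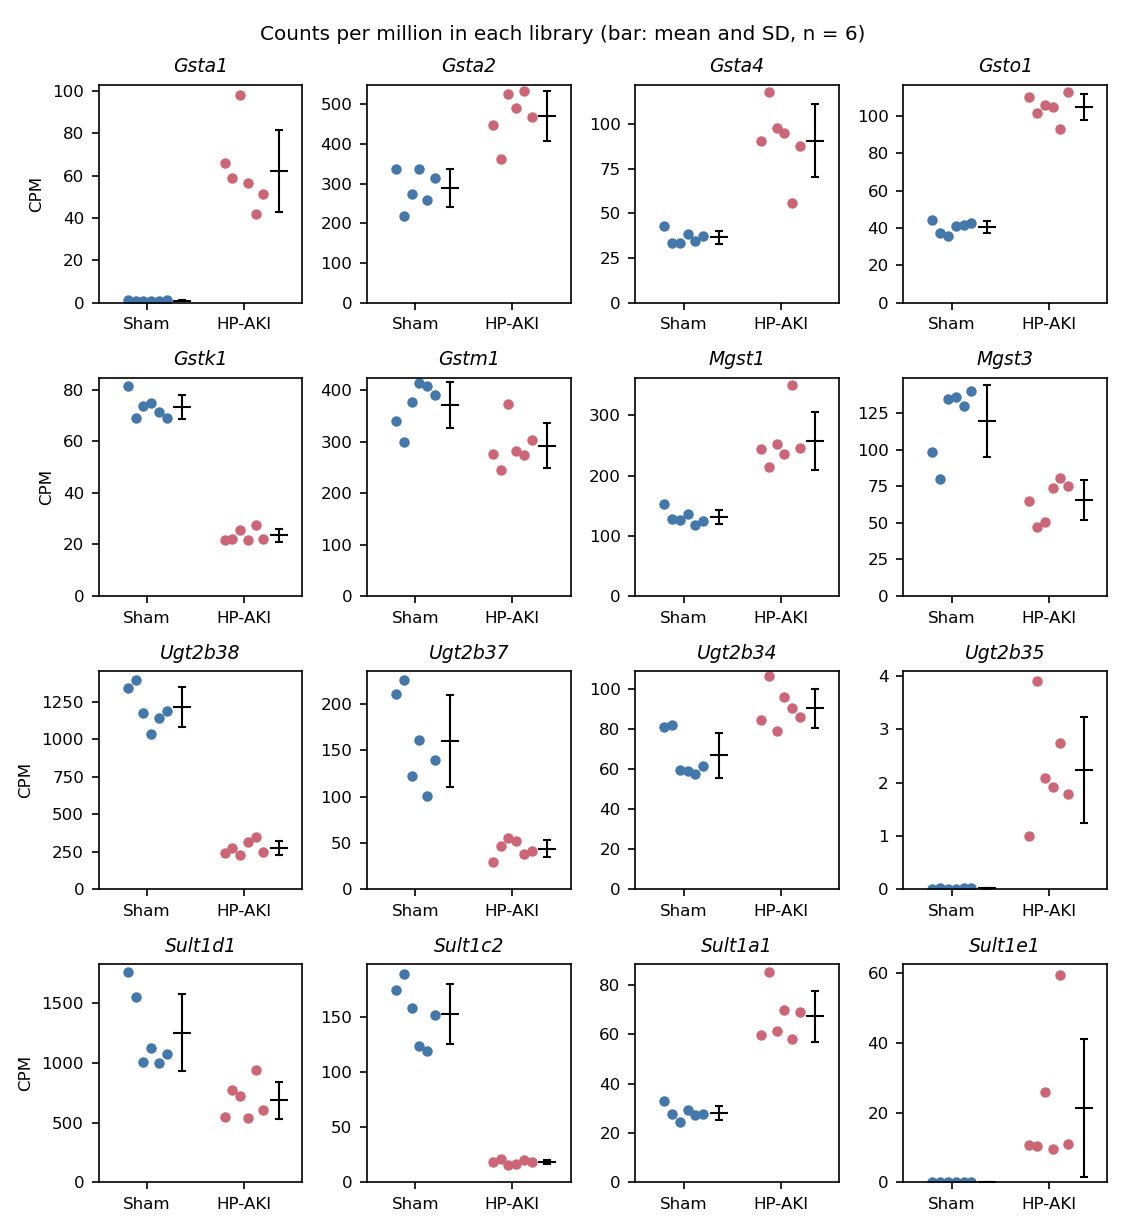
CPM in each of the 12 libraries for selected members, with the mean and SD of each group (n = 6) beside the points; each panel has its own linear axis in CPM. Sult1c2, Ugt2b38 and Gstk1 show 2 groups without overlap, while Sult1e1 in HP-AKI is spread from 9.57 to 59.5 CPM.

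Summed per length over the 20 genes, glutathione S-transferase RNA ran from 980.1 to 1322 in sham and from 1116 to 1479 in HP-AKI (CPM per kilobase), with overlapping groups and means of 1199.8 ± 118 and 1354 ± 128. The makeup of that sum differed between the groups. Gsta2 went from 20.4% ± 2.15 to 29.5% ± 2.24 of the class, and Gstm1 from 22.2% ± 1.17 to 15.5% ± 1.38. Gsta1 went from 0.0818% to 4.81%, Gsta4 from 3.21% to 7.13%, Gstp1 from 9.87% to 14.98% and Gstk1 from 6.61% to 1.87%. These shares are descriptions and were not tested.

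The microsomal glutathione S-transferases are membrane proteins of a separate family. Mgst1, which conjugates electrophiles and reduces lipid hydroperoxides at the endoplasmic reticulum and outer mitochondrial membrane, ranged from 119 to 153 CPM in sham (median 127) and from 214 to 351 CPM in HP-AKI (median 244). The groups did not overlap, with HP-AKI 12 above the other 5, and the gene rose by 0.97 ± 0.11 on the log2 scale (adjusted p = 1.15e-06). Mgst3 ranged from 80.1 to 139.9 CPM in sham (median 132) and from 47.4 to 80.4 CPM in HP-AKI (median 69.3), with Sham 1, Sham 2 and HP-AKI 8 again lowest in their groups. The highest HP-AKI value was just above the lowest sham value, and the gene fell by 0.87 ± 0.16 on the log2 scale (adjusted p = 1.44e-04); without the 3 libraries the change was -1.01 (adjusted p = 1.43e-06). Mgst2, which can form leukotriene C4, was low, at 0.521 ± 0.168 CPM in sham and 0.836 ± 0.373 CPM in HP-AKI, and did not pass (0.69 ± 0.33, adjusted p = 0.0726). It passed without HP-AKI 12 (0.86, adjusted p = 0.00951) and with scaling by total count alone (0.81, adjusted p = 0.0360). Mgst1 went from 37.9% ± 6.51 to 68.1% ± 3.89 of the summed level per length of the 3 genes, while Mgst3 went from 62.03% ± 6.54 to 31.7% ± 3.92. The sum itself ran from 137 to 191 in sham and from 149.8 to 248 in HP-AKI (CPM per kilobase).

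UDP-glucuronosyltransferases of the UGT1 locus include the bilirubin-conjugating enzyme Ugt1a1 and several enzymes for phenols. The locus spans 165 kb of chromosome 1 (chr1:88055388-88220002), and all 9 of its rows in the table were lower in HP-AKI with no overlap between groups. Ugt1a7c ranged from 756 to 931 CPM in sham (median 832) and from 364 to 623 CPM in HP-AKI (median 479), and it fell by 0.79 ± 0.11 on the log2 scale (adjusted p = 8.81e-06), with a change of -0.70 without Sham 1, Sham 2 and HP-AKI 8. The other 8 rows had nearly the same CPM as each other in every library and changed by -0.69 to -0.65 (adjusted p from 2.47e-05 to 3.53e-05).

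These rows share most of their reads. The lowest of the 9 rows in each library held 474 ± 23.7 CPM in sham and 300.3 ± 49.9 CPM in HP-AKI, and 9 times its reads made up 91.6% of the reads of all rows in sham and 93.04% in HP-AKI. Apart from Ugt1a7c, no row exceeded the lowest by more than 5.58% in any library. Reads of the shared exons thus stand in every row, and the 9 falls are 1 observation of those exons. Gm20528, an antisense gene that overlaps at least 394 exon bases of each UGT1 gene, held only 0.303 to 1.34 CPM.

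The reads of each row beyond those of the lowest row come from sequence that not all 9 genes share. Such sequence includes the first exons, which give each enzyme its substrate range, and stretches that some of the genes have in common. This measure was chosen after the rows' values were seen, and was compared by an exact two-sided permutation test on its CPM over all 924 splits of 6 against 6 (smallest possible p = 0.00216), adjusted over the 8 rows with such reads in both groups. Ugt1a10 had from 309 to 646 such reads in the sham libraries and from 40 to 111 in HP-AKI (2649 and 430 in all), a ratio of mean CPM of -2.65 on the log2 scale. Ugt1a2 had from 53 to 181 such reads in the sham libraries and from 6 to 23 in HP-AKI, a log2 ratio of -2.90. Both ratios lay below that of the shared exons, a gap that was not itself tested, and neither gene's reads overlapped between groups (adjusted exact permutation p = 0.00346 for each).

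Ugt1a9 had from 1 to 19 such reads in the sham libraries and from 33 to 112 in HP-AKI. These reads were 4.01-fold higher in mean CPM while its whole row fell (adjusted exact permutation p = 0.00346). The 112 came from HP-AKI 8, with the next highest, 42, in HP-AKI 7, and no ratio without HP-AKI 8 was made. Ugt1a6b had from 92 to 116 such reads in the sham libraries and from 24 to 61 in HP-AKI (log2 ratio -1.31, adjusted exact permutation p = 0.00346). Ugt1a6a, a phenol-conjugating form, had 3100 in sham and 2507 in HP-AKI over all libraries (log2 ratio -0.33, adjusted exact permutation p = 0.0491), with overlapping groups. These reads are not all from Ugt1a6a, since its exons share 2170 bases with those of Ugt1a7c, against the 1311 shared by all 9; Ugt1a6b and Ugt1a7c likewise share 1444. Ugt1a1 had 274 and 280 (adjusted exact permutation p = 0.994), and Ugt1a8 61 and 27 (adjusted exact permutation p = 0.0618). Ugt1a5 had none in sham and 1 in HP-AKI and was not tested.

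Ugt1a7c held most of the reads beyond the lowest row, 78499 in sham and 40736 in HP-AKI, which was 43.1% and 38.1% of its row (log2 ratio -0.97, adjusted exact permutation p = 0.00346). Its annotation has 1915 exon bases of its own, and 998 of them lie beyond the 3′ end that the 9 genes share. Reads of its first exon and of that extension cannot be told apart in gene counts, and transcripts of other UGT1 genes that run into the extension would count there too.

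**Figure D3:**
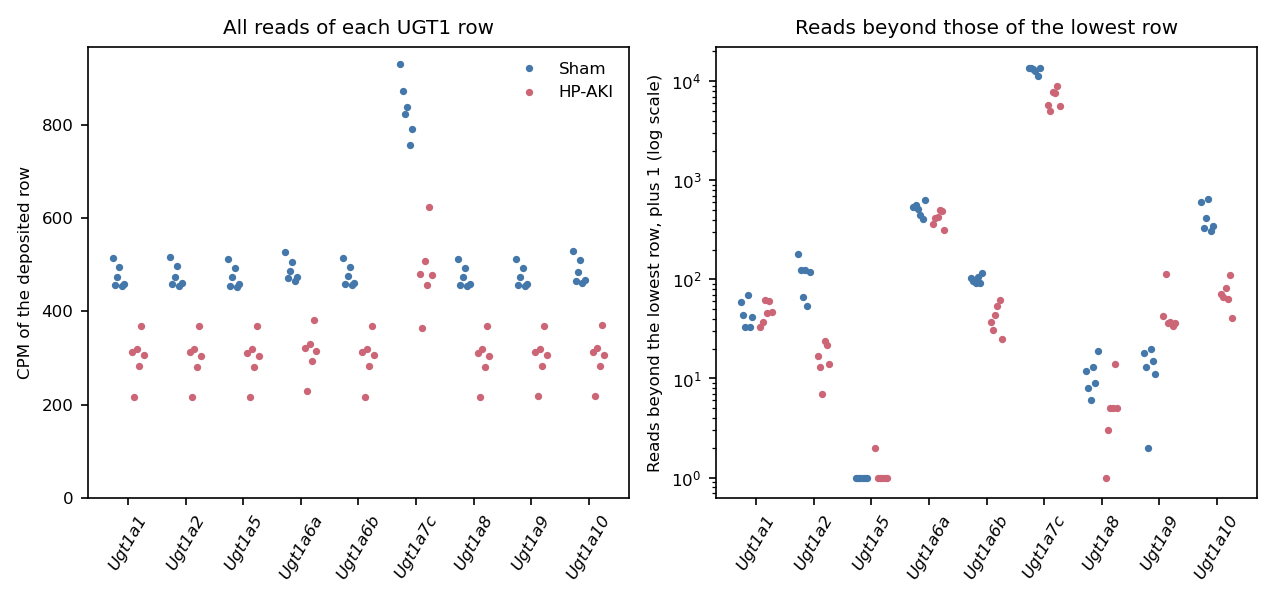
CPM of each deposited UGT1 row in each library on a linear axis, beside the reads of each row beyond the lowest row plus 1 on a log axis. The rows other than Ugt1a7c lie on top of each other in the whole-row values, and in the reads beyond the lowest row Ugt1a10 and Ugt1a2 are lower and Ugt1a9 higher in HP-AKI.

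UGT2 enzymes conjugate steroids, bile acids and drugs. Of the 9 genes, 6 were tested and all 6 were called, 4 lower and 2 higher. Ugt2b38 (ENSMUSG00000061906, chr5:87409942-87424203) had the highest level per length of all 59 members in sham, 642 CPM per kilobase, and had rank 5 in HP-AKI at 146. It ranged from 1038 to 1397 CPM in sham (median 1184) and from 228 to 349 CPM in HP-AKI (median 259.6). The groups were wide apart, 4.41-fold between means, and the gene fell by 2.14 ± 0.12 on the log2 scale (adjusted p = 3.42e-10).

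Ugt2b37, its relative by sequence, ranged from 100.4 to 226 CPM in sham (median 150.3) and from 29.7 to 55.4 CPM in HP-AKI (median 43.9), without overlap, and it fell by 1.87 ± 0.20 on the log2 scale (adjusted p = 5.98e-07). Its 2 highest sham values came from Sham 1 and Sham 2, as did those of Ugt2b38 and Ugt2b34, and without these and HP-AKI 8 the changes were -1.63 for Ugt2b37, -2.08 for Ugt2b38 and 0.51 for Ugt2b34. Ugt2a3, at low level, ranged from 1.86 to 2.82 CPM in sham (median 2.22) and from 0.338 to 0.701 CPM in HP-AKI (median 0.465) and fell by 2.22 ± 0.21 on the log2 scale (adjusted p = 1.95e-07). Ugt2b5 ranged from 6.65 to 38.7 CPM in sham (median 8.48) and from 1.78 to 3.32 CPM in HP-AKI (median 2.52) and fell by 2.39 ± 0.42 on the log2 scale (adjusted p = 1.09e-04), with no overlap between groups. The highest sham value came from Sham 2 alone; without it the change was -1.70 (adjusted p = 7.71e-07), and without Sham 1, Sham 2 and HP-AKI 8 it was -1.55 (adjusted p = 1.07e-06). Part of the reads of Ugt2b37, Ugt2b38 or Ugt2b5 may be counted to another of them. Of their 50-base words, 18.3%, 37.4% and 41.7% also occur in other genes, so this bears least on Ugt2b37.

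Both UGT2 genes that rose lie in the same gene cluster as those that fell. Ugt2b34 ranged from 57.6 to 81.7 CPM in sham (median 60.6) and from 78.7 to 106 CPM in HP-AKI (median 88.2). These ranges overlapped slightly, and the gene rose by 0.44 ± 0.11 on the log2 scale (adjusted p = 0.00206). Ugt2b35 was all but absent from sham, with 3 counts over the 6 libraries, and had 491 counts over the 6 HP-AKI libraries, from 0.993 to 3.90 CPM. The ratio was 162, with a 95% exact binomial interval of 55.2 to 789.8 that covers counting error only, and the groups did not overlap (edgeR adjusted p = 9.24e-09). Ugt2a1, Ugt2b1 and Ugt2b36 had 8 to 22 counts over a group and were not tested.

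The summed level of the UGT2 genes ran from 653 to 899 in sham and from 166 to 229 in HP-AKI (CPM per kilobase), a 3.90-fold difference of means without overlap. Ugt2b38 made up 85.8% of it in sham and 75.4% in HP-AKI. Ugt2b34 went from 2.05% ± 0.0985 to 10.96% ± 1.20 and Ugt2b37 from 11.1% ± 2.35 to 12.1% ± 2.96.

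Sulfotransferases showed the widest range of changes. Of 18 genes, 12 had counts and 7 were tested; 3 rose, 3 fell and Sult5a1 did not pass. Sult1d1, which sulfates catecholamines and was the second most abundant member per length in both groups (509 and 279 CPM per kilobase), ranged from 999 to 1761 CPM in sham (median 1098) and from 539 to 936 CPM in HP-AKI (median 662). The groups did not overlap, and the gene fell by 0.87 ± 0.17 on the log2 scale (adjusted p = 3.11e-04). Its 2 highest sham values came from Sham 1 and Sham 2, and without these and HP-AKI 8 the change was -0.69 (adjusted p = 5.71e-04).

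Sult1c2 (ENSMUSG00000023122, chr17:53829637-53846339) had the largest fall of all members tested. It ranged from 119.8 to 189 CPM in sham (median 155) and from 15.9 to 20.8 CPM in HP-AKI (median 18.5), and every HP-AKI library lay far below every sham library. The difference of means was 8.29-fold, and the gene fell by 3.05 ± 0.12 on the log2 scale (adjusted p = 1.56e-11). Sult1b1, which acts on thyroid hormones and phenols, ranged from 6.32 to 11.1 CPM in sham (median 7.52) and from 2.67 to 4.49 CPM in HP-AKI (median 3.12), also without overlap, and fell by 1.30 ± 0.17 on the log2 scale (adjusted p = 4.64e-06). Both were highest in Sham 1 and Sham 2 among the sham libraries, and without these and HP-AKI 8 the changes were -2.99 and -1.25.

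Sult1a1, the phenol sulfotransferase, ranged from 24.5 to 33.00 CPM in sham (median 27.6) and from 58.1 to 85.3 CPM in HP-AKI (median 65.2). All HP-AKI libraries were above all sham libraries, and the gene rose by 1.25 ± 0.10 on the log2 scale (adjusted p = 3.06e-08). Sult2b1, which sulfates cholesterol and other hydroxysteroids, ranged from 0.319 to 0.567 CPM in sham (median 0.478) and from 1.50 to 3.16 CPM in HP-AKI (median 2.18), also with the groups apart, and rose by 2.25 ± 0.21 on the log2 scale (adjusted p = 1.52e-07). Its exons overlap 243 bases of Lmtk3 on the other strand, and Sult1a1 overlaps 61 bases of Sgf29 likewise. Whether the authors' counting used strand is not given in the sources used here. Gm20528, on the other strand from the UGT1 exons, held only 0.303 to 1.34 CPM, so few reads of those exons were counted to it. For Lmtk3 and Sgf29 this was not tested.

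Sult1e1, the estrogen sulfotransferase (ENSMUSG00000029272, chr5:87575968-87591611), had 4 counts over the 6 sham libraries and 4659 over the 6 HP-AKI libraries. In HP-AKI, 4 libraries lay between 9.57 and 10.9 CPM, HP-AKI 9 had 25.9 CPM and HP-AKI 12 had 59.5 CPM. The RNA was thus detected in all 6, at unequal levels. The ratio of the groups was 1155, with a 95% exact binomial interval of 451 to 4242 for counting error only. The fitted log2 fold change, which at so few sham counts depends on the prior count, was 9.93 ± 0.81 (adjusted p = 3.10e-08). It was 9.27 without HP-AKI 12, 10.54 without Sham 1, which held 2 of the 4 sham counts, 11.18 without Sham 1, Sham 2 and HP-AKI 8, and 9.29 with limma-voom.

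Sult5a1 stood at 1.73 ± 0.342 CPM in sham and 1.40 ± 0.518 CPM in HP-AKI (-0.31 ± 0.23, adjusted p = 0.237), and passed without HP-AKI 13 (-0.50, adjusted p = 0.0471). Sult4a1 had 13 counts over the sham and 68 over the HP-AKI libraries, with groups that did not overlap, but was too low for the test. Sult2a3 had 20 and 14 counts, Sult6b1 10 and 8, Sult3a1 1 and none, and Sult2a4 none and 1. The hydroxysteroid sulfotransferases of the Sult2a group, a cluster on chromosome 7 best known from liver, were thus at or near zero in these kidneys.

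The summed sulfotransferase level ran from 493 to 838 in sham and from 284 to 481 in HP-AKI (CPM per kilobase) and its groups did not overlap. Sult1d1 kept most of it, 82.5% in sham and 78.7% in HP-AKI. Sult1c2 went from 13.7% ± 1.96 to 2.90% ± 0.509, Sult1a1 from 3.13% ± 0.504 to 13.04% ± 2.96, and Sult1e1 from 0.00209% to 4.33%.

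**Figure D4:**
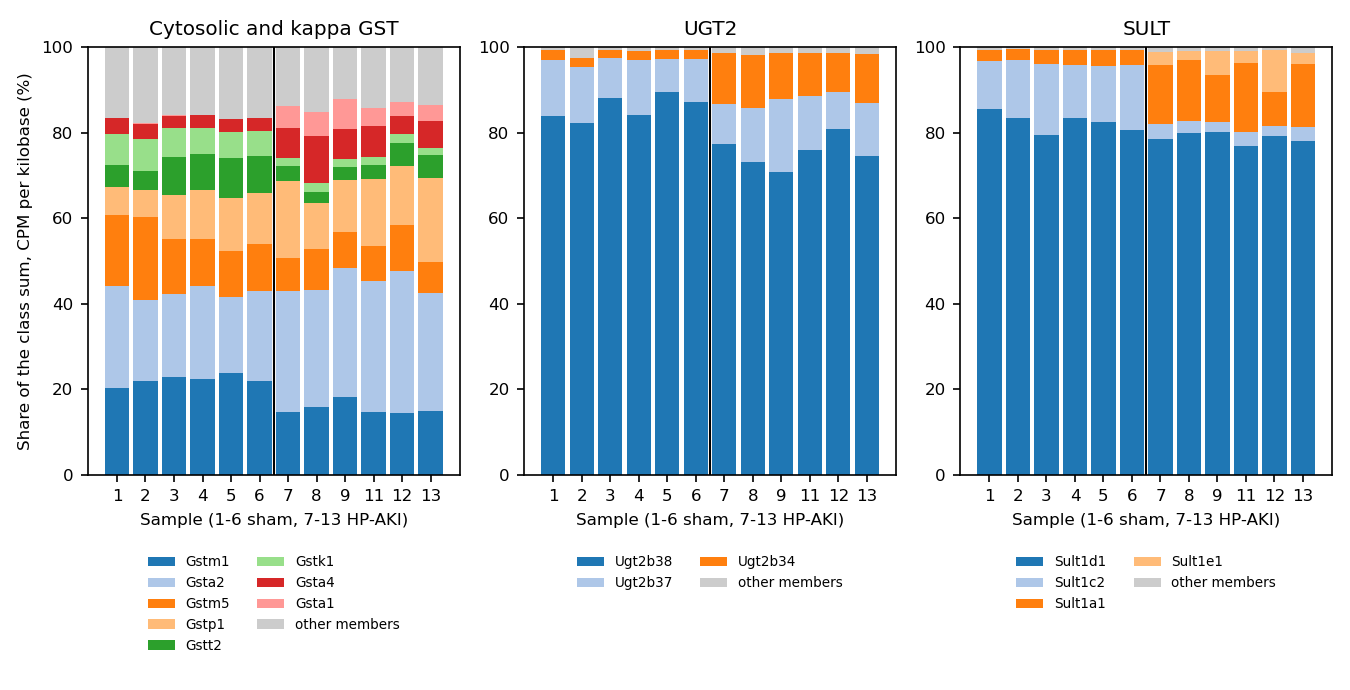
Percent of the summed level per length (vertical axis) that each named member takes in each of the 12 libraries (horizontal axis), for the cytosolic and kappa glutathione S-transferases, the UGT2 genes and the sulfotransferases; members that reach less than 4% in both groups' means are pooled in grey. Ugt2b38 and Sult1d1 are the largest part of their classes in every library, and Gsta2 takes a larger and Gstm1 a smaller share in HP-AKI.

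Neighbouring members did not always move together. The cluster of UGT2 and sulfotransferase genes on chromosome 5 (chr5:86889767-87591611) holds 12 members in 702 kb, and of its 9 tested members 3 rose and 6 fell. Sult1b1, Sult1d1 and Sult1e1 are neighbours there, and the former 2 fell while Sult1e1 rose. In the mu cluster 1 of 7 rose and 5 fell, whereas the 3 alpha genes of chromosome 9 rose, the pi pair rose and the 3 tested theta genes of chromosome 10 fell.

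Promoter windows from 250 bases before to 50 bases after the annotated start, from RefSeq GRCm38.p6, matched 52 of the 59 members and were searched on both strands for 2 motifs. TGACNNNGC, the core of the antioxidant response element bound by NRF2, occurred in 4 of 52 members (7.69%) and in 13.99% of all 27025 genes with a window. These 4 are shown because NRF2 is the regulator best known for this gene family; capitals mark the motif, which is written on the strand of the gene.
Gsta3: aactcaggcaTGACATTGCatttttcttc
Gstm5: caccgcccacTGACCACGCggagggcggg
Gstm7: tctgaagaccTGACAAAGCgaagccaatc
Mgst1: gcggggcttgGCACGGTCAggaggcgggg
They lie at chr1:21240454-21240482 (plus strand), chr3:107895802-107895830 (plus), chr3:107931725-107931753 (minus) and chr6:138140461-138140489 (plus, motif on the other strand). Of the 4 genes, Mgst1 rose, Gstm5 and Gstm7 fell and Gsta3 did not pass. Among members with a window, the motif was in 1 of 12 that rose and in 2 of 25 that fell. The 25 include UGT1 rows, called lower on shared exons, so for these the call does not describe the output of each promoter.

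TGANTCA, which includes the AP-1 core forms TGACTCA and TGAGTCA, occurred in 12 of 52 members (23.1%) and in 8.97% of all 27025 genes. It was in 4 of 12 members that rose and in 5 of 25 that fell, and Ugt1a6a of the UGT1 locus is among the 5. The matches in Ugt1a6a and Ugt2b35 read TGATTCA and those in Ugt2b1 and Ugt2b38 read TGAATCA, which are neither of these core forms. No match of one motif overlapped a match of the other. The pi pair, which rose together, carries the same 29 bases around it, at chr19:4037969-4037997 and chr19:4042293-4042321 on the minus strand; capitals again mark the motif.
Gstp1: ctccaacgtgtTGAGTCAgcatccggggc
Gstp2: ctccaacgtgtTGAGTCAgcatccggggc
Both windows read TGAGTCAgc, with G where TGACNNNGC has its first C, so they were not counted as matches of that motif. Forms of the antioxidant response element other than TGACNNNGC were not searched, and neither was sequence outside the windows, so elements farther from the start would be missed. A match describes the letters in the window and not a bound site.

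Genes that supply cofactors, carry products onward or regulate these enzymes were read from 7 lists, and of 69 tested 23 rose, 36 fell and 10 did not pass, beside the 72.8% called over all genes. The fit lacking Sham 1, Sham 2 and HP-AKI 8 called 63 of these list genes, with Slc35d2, Nat2, Arnt and Rxra added. Of 8 genes for glutathione supply, 6 rose and 2 fell. Slc7a11, the cystine importer, rose by 9.06 ± 0.32, and Pgd, an NADPH-forming enzyme of the pentose phosphate pathway, by 2.37 ± 0.15 on the log2 scale. Gclc, the catalytic subunit of the rate-limiting enzyme of glutathione synthesis, rose from 478 ± 146 to 1375 ± 310.2 CPM, and Gclm, its modifier subunit, from 496 ± 52.7 to 803 ± 53.04 CPM. Slc1a1, a glutamate and cysteine transporter, fell by 1.62 ± 0.073, and Gss, glutathione synthetase, fell by 0.29 ± 0.11 (adjusted p = 0.0315), a call that held in 15 of 20 alternatives.

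The mercapturate pathway trims and acetylates glutathione conjugates. Its list also held deacetylating aminoacylases and enzymes that degrade glutathione itself, and 8 of 10 genes fell. Nat8, the acetylating enzyme, fell by 2.02 ± 0.23 on the log2 scale. Ggt1, the glutamyltransferase that makes the first cut, fell from 643 ± 174 to 323 ± 91.4 CPM, Acy3, an aminoacylase, from 986 ± 199.7 to 269.8 ± 54.3 CPM, and Acy1 fell by 2.19 ± 0.19 on the log2 scale. Without Sham 1, Sham 2 and HP-AKI 8 the changes were -1.14 for Ggt1 and -2.41 for Acy1. Chac1, which degrades cytosolic glutathione, was the 1 gene that rose, by 4.34 ± 0.26, and Ggt5 differed by 0.27 ± 0.17 (adjusted p = 0.168).

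For glucuronidation, Ugdh, which makes UDP-glucuronate, rose from 155 ± 14.9 to 459 ± 65.4 CPM (1.57 ± 0.10, adjusted p = 1.87e-09), while the UGT1 rows and 4 of 6 tested UGT2 genes fell. Slc35d1, which carries UDP-glucuronate into the endoplasmic reticulum, fell by 0.52 ± 0.096 and Gusb, the glucuronidase, fell by 0.44 ± 0.083. Ugp2 (-0.11 ± 0.10, adjusted p = 0.336) and Slc35d2 (0.20 ± 0.090, adjusted p = 0.0579) did not pass.

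Genes for sulfate uptake and PAPS fell in 6 of 8 cases. Papss2, which makes PAPS, fell from 562 ± 53.4 to 113 ± 12.2 CPM, a change of -2.31 ± 0.093, and Papss1 fell by 1.03 ± 0.10. The sulfate transporters Slc26a1 and Slc13a1 changed by -2.96 ± 0.14 and -2.34 ± 0.096. The Golgi PAPS transporter Slc35b3 and the phosphatase Impad1 rose by 0.68 ± 0.098 and 0.59 ± 0.11.

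Of 15 other conjugating enzymes tested, 3 rose and 10 fell. Nat1, an arylamine acetyltransferase, fell by 4.08 ± 0.27, and Acsm2, an acyl-CoA synthetase for glycine conjugation that also serves as a proximal tubule marker, from 7052 ± 586 to 1845 ± 211 CPM. Hpgds, the glutathione-dependent prostaglandin D synthase of the sigma class, rose by 3.01 ± 0.15. Of 9 genes listed as conjugate exporters, 6 rose, among them Abcb1a and Abcb1b, P-glycoproteins that export drugs rather than conjugates. Abcc2 (MRP2) rose from 734 ± 83.4 to 1908 ± 251 CPM, and Abcc3 rose by 2.15 ± 0.15. Abcc6 and Abcc5 fell, with log2 fold changes of -2.29 ± 0.30 and -0.39 ± 0.088, and Abcg2 (BCRP) fell from 696 ± 101 to 348 ± 41.7 CPM.

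Among 14 regulators tested, 4 rose and 5 fell. Nfe2l2, which encodes NRF2, rose by 1.24 ± 0.090 and Nqo1, a standard NRF2 target, by 1.76 ± 0.083. Bach1, a heme-binding repressor of the same elements, rose by 1.31 ± 0.086, and Keap1, which holds NRF2 in check, by 0.40 ± 0.15 (adjusted p = 0.0318), a call that held in 12 of 20 alternatives. Hnf4a, a transcription factor of mature proximal tubule, fell from 800.3 ± 43.7 to 155 ± 37.8 CPM (-2.36 ± 0.13), and Esr1, the estrogen receptor, fell by 2.30 ± 0.13. Cyp1a1, a target of the aryl hydrocarbon receptor, stood at 1.36 ± 0.202 and 1.29 ± 0.328 CPM (adjusted p = 0.737).

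**Figure D5:**
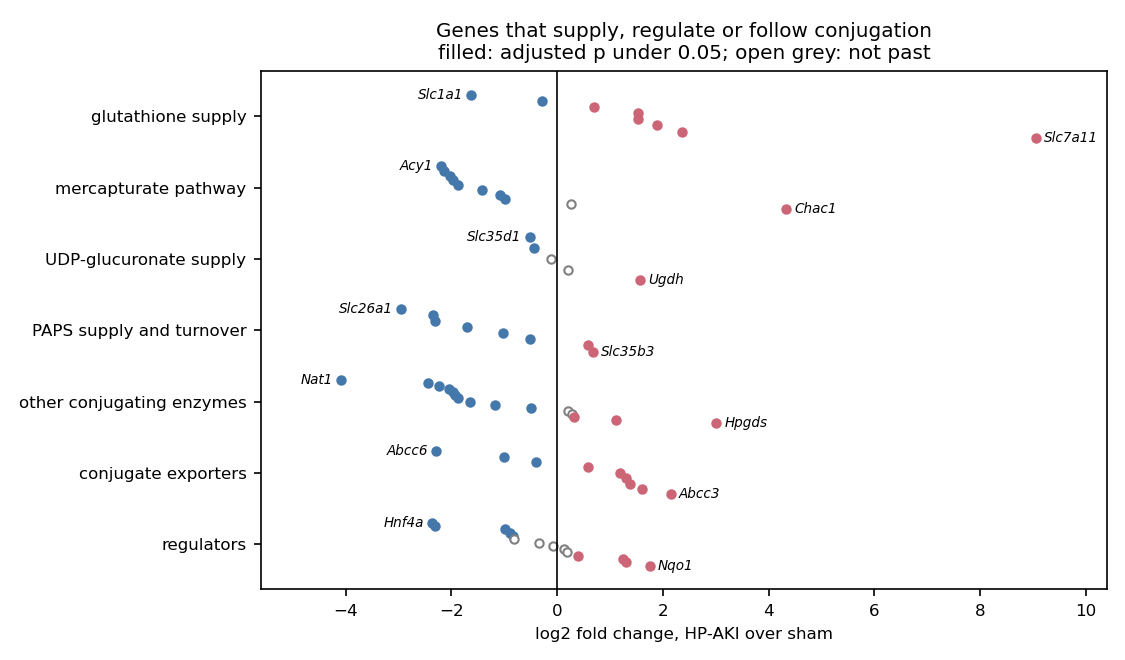
Log2 fold change, HP-AKI over sham, of the tested genes in the 7 lists of cofactor supply, product handling and regulation; filled points passed the test and open grey points did not. Genes of glutathione supply and of the exporter list, which includes Abcb1a and Abcb1b, lie mostly above 0. Those of the mercapturate pathway and PAPS supply lie mostly below 0.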

How the data were processed

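The deposited table holds, for each of 12 libraries, whole-number counts per gene made by the authors and RPKM values deposited beside them; the RPKM values entered no test. TopHat2 2.1.0, featureCounts, edgeR and GRCm38 appear in the submitters' processing notes with no settings, and the TruSeq RNA kit and Trizol with a Qiagen kit appear in the labels' protocols. Gene positions and lengths are those of the deposited table; 40 of 59 listed lengths equal the GENCODE vM21 exon union. Counts were fitted with edgeR 4.0.16 (R 4.3.3, filterByExpr with the group, TMM, glmQLFit and glmQLFTest, two-sided), and each SE is the log2 fold change over the root of its F statistic. The median SE was 0.141 over all genes tested, at a biological coefficient of variation of 0.178. The fitting script was tested on simulated data. Samples were grouped by their labels, which give no batch. Libraries of 1 group correlated at 0.974 to 0.993 in log2 CPM.

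Members and lists were chosen with earlier results of these data known. The 4 largest rises and falls per class, among called members of at least 1 CPM, were given with ranges or counts over the libraries. So was the most abundant member per length in each group. For Ugt1a10, Ugt1a2, Ugt1a6b and Ugt1a9 the range was that of the reads beyond the lowest row. Per list the 2 largest changes, the highest CPM and members of small counts were named. Other members named were chosen after their values were seen. Of 133 list entries 131 were found. Alternatives were RLE, upper-quartile and library-size scaling, DESeq2 1.42.0, limma-voom 3.58.1, a filter of 1 CPM in 6 samples, no filter, leaving out each library or Sham 1, Sham 2 and HP-AKI 8 together, deposited RPKM for the summed levels, and, added after seeing the data, counting UGT1 once.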

Additional observations from a re-analysis of the deposited data

Results flagged for a closer look

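Each group of 6 was checked for the 29 members named by the rule per class. The check sought a highest or lowest library whose gap to the next, relative to the group's range, exceeded the 95% critical value of Dixon's test. Of 58 groups, 3 had one; chance alone gives about 1 in 20. Mgst1 in HP-AKI 12 stood at 351 CPM, with the next library at 252. Sult1e1 in the same library stood at 59.5 CPM, with the next at 25.9. Ugt2b5 in Sham 2 stood at 38.7 CPM, with the next at 10.6; Sham 2 is 1 of the libraries that stood apart on the second component. What set these values apart was not tested.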

How the results depend on the processing

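Every count of called members and every summed class level kept its direction and stayed within its margin in the alternatives run. Members called ranged from 32 (UGT1 counted once) to 41, and all genes called from 11163 (filter of 1 CPM in 6 samples) to 14633 (no filter). The summed levels ranged on the log2 scale from 0.12 to 0.29 for the cytosolic and kappa glutathione S-transferases, 0.0073 to 0.22 for the microsomal ones, -0.74 to -0.56 for UGT1, -2.02 to -1.84 for UGT2 and -0.90 to -0.67 for the sulfotransferases. The UGT1 sum adds 9 rows that hold largely the same reads, so it is not a sum over separate genes like the others. Scaling by total count alone gave 15 members higher and 26 lower and moved the median of all genes from 0.042 to 0.16; without Sham 1, Sham 2 and HP-AKI 8, 14 rose and 27 fell of 45 tested. For single members 872 values kept their sign and their side of the threshold and 6 did not. Gstm3 ran from -0.47 to 0.061 as single libraries were left out, turning sign without Sham 6, Gstm1 lost its call, and Gsta3, Mgst2 and Sult5a1 gained one, with values in the report. The cause was not tested. Depth limits the 9 members with counts that were too low to test. No paired analysis was possible because the groups share no sample numbers.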
